A study of Mus musculus with 10 samples.

Results

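The genes of T cells, natural killer (NK) cells and B cells were followed in the porcine pancreatic elastase (PPE) model of abdominal aortic aneurysm (AAA). The 40 genes were chosen by name as marker and signalling genes of these lymphocytes, by a rule that sets no threshold on a measured value, and all 40 were found among the 35527 gene names of the array. They fall into 13 pan-T genes, 7 genes of helper and regulatory T cells, 11 genes of cytotoxic T and NK cells, and 9 B genes. Every mouse was a male C57BL/6J, 10 weeks old and on a normal diet, with no transgene. In the PPE group (n = 5), type I PPE in saline at 1.5 U/mL was infused into the infrarenal aorta for 5 min at 100 mmHg, and in the sham group (n = 5) saline alone was infused in the same way. The segment between left renal artery and bifurcation was taken on day 7, and RNA of 1 mouse was hybridized per array, in red, against universal mouse reference RNA in green, a mixture of RNA from many cell lines. The model is one of acute enzymatic injury of a healthy vessel. The samples are whole tissue, which per the methods was freed of surrounding fat and connective tissue under a microscope. The question was how far the transcripts of each lymphocyte lineage differed between PPE and sham aortas at this time.

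T cells recognise antigen through the T cell receptor, which signals through the CD3 chains. The kinase Lck phosphorylates tyrosines in the tails of these chains, Zap70 docks there, and the adaptor Lat passes the signal on. NK cells and cytotoxic T cells kill by releasing perforin and granzymes, and B cells signal through Cd79a and Cd79b beside their surface immunoglobulin. Lymphocytes have been described in aneurysm walls of people and mice, in the adventitia above all, and lymph nodes lie close to the abdominal aorta.

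The tyrosines that carry the signal lie inside the part of the transcript that 2 probes of CD3 chains read, which is why these are shown. Each is 60 bases long and is given 5′ to 3′ in the sense of the mRNA, with capitals on the tyrosine codons that are followed, 3 codons further on, by a leucine or isoleucine codon in the reading frame without a stop. Both probes hold 2 such codons, and both cover more genome than their own length (232 and 1019 bases on mm9), so that they cross an intron. The Cd3d probe (chr9:44794171-44794402, plus strand) is the one behind all Cd3d values below, and the Cd247 probe (chr1:167786567-167787585, plus strand) is the dimmer of the Cd247 probes.
Cd3d: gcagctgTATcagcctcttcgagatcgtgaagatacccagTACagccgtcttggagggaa
Cd247: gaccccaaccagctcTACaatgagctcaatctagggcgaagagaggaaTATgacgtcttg

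Values are log2 ratios of aorta over reference after background correction and normalization, and a gene with several probes is represented by its brightest. A ratio is comparable between arrays for 1 gene and not between genes, since the reference level differs from gene to gene. A gene was called when limma's p-value, adjusted by Benjamini-Hochberg over all 35527 names, was under 0.01. Over the whole array, 8.49% of names were called higher in PPE and 5.94% lower. Every PPE array lay above every sham array for 10.1% of names and below for 7.01%. Red signal was well above background for 37.6% of spots on sham 5 to 65.8% on PPE 1, and no spot was saturated. All 10 smooth muscle markers were above background on the 5 sham arrays, which goes with the labelled tissue. Adipocyte markers other than Lep were above background on every array (Fabp4 at a mean of 7.74 and Adipoq at 5.54 in sham). The samples thus held adipocyte transcripts too. The arrays lay on 5 slides. Sham 1, PPE 1 and PPE 2 shared slide 1, the arrays sham 2 and 3 and PPE 3 and 4 shared slide 2, and each other array had a slide to itself. Slide 1 was scanned on another day than the rest. Among the sham arrays, sham 3 was the highest for 19 of the 40 genes, and among the PPE arrays PPE 2 was the highest for 19 and PPE 1 for 18, while PPE 5 was the lowest for 21. Results that rest on sham 3 or PPE 2 are given with and without them.

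Of the 40 lymphocyte genes, 20 were called higher in PPE and 0 lower, and 38 had a positive difference. The median log2 fold change was 1.37, against 0.00 over all names. Without sham 3 and PPE 2 together, 16 were called higher, where 2423 names of the whole array were, and the median of the 40 was 1.41. When arrays were only centred on their medians, without loess, 0 of the 40 were called, where 233 names of the whole array were called higher and 0 lower; the log2 fold changes of the 20 genes were then 1.16 to 3.58. By lineage, 10 of 13 pan-T genes, 4 of 7 helper and regulatory T genes and 5 of 11 cytotoxic T and NK genes were called higher, and 1 of 9 B genes. With the slide as a fixed block (3070 names higher over the array) the counts were 5 of 13, 3 of 7, 5 of 11 and 1 of 9, and no test compared the lineages. Their median log2 fold changes were 1.91, 1.36, 1.70 and 0.32 in that order. Every PPE array lay above every sham array for 24 of the 40, and 1 gene, Gata3, lay entirely below. For a single gene whose groups do not overlap, the exact two-sided permutation test gives p = 0.00794, the smallest that 5 against 5 arrays allow. In whole tissue, a change in the number of cells of a type and a change in RNA per cell cannot be told apart, and this holds for each result below.

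**Figure D1:**
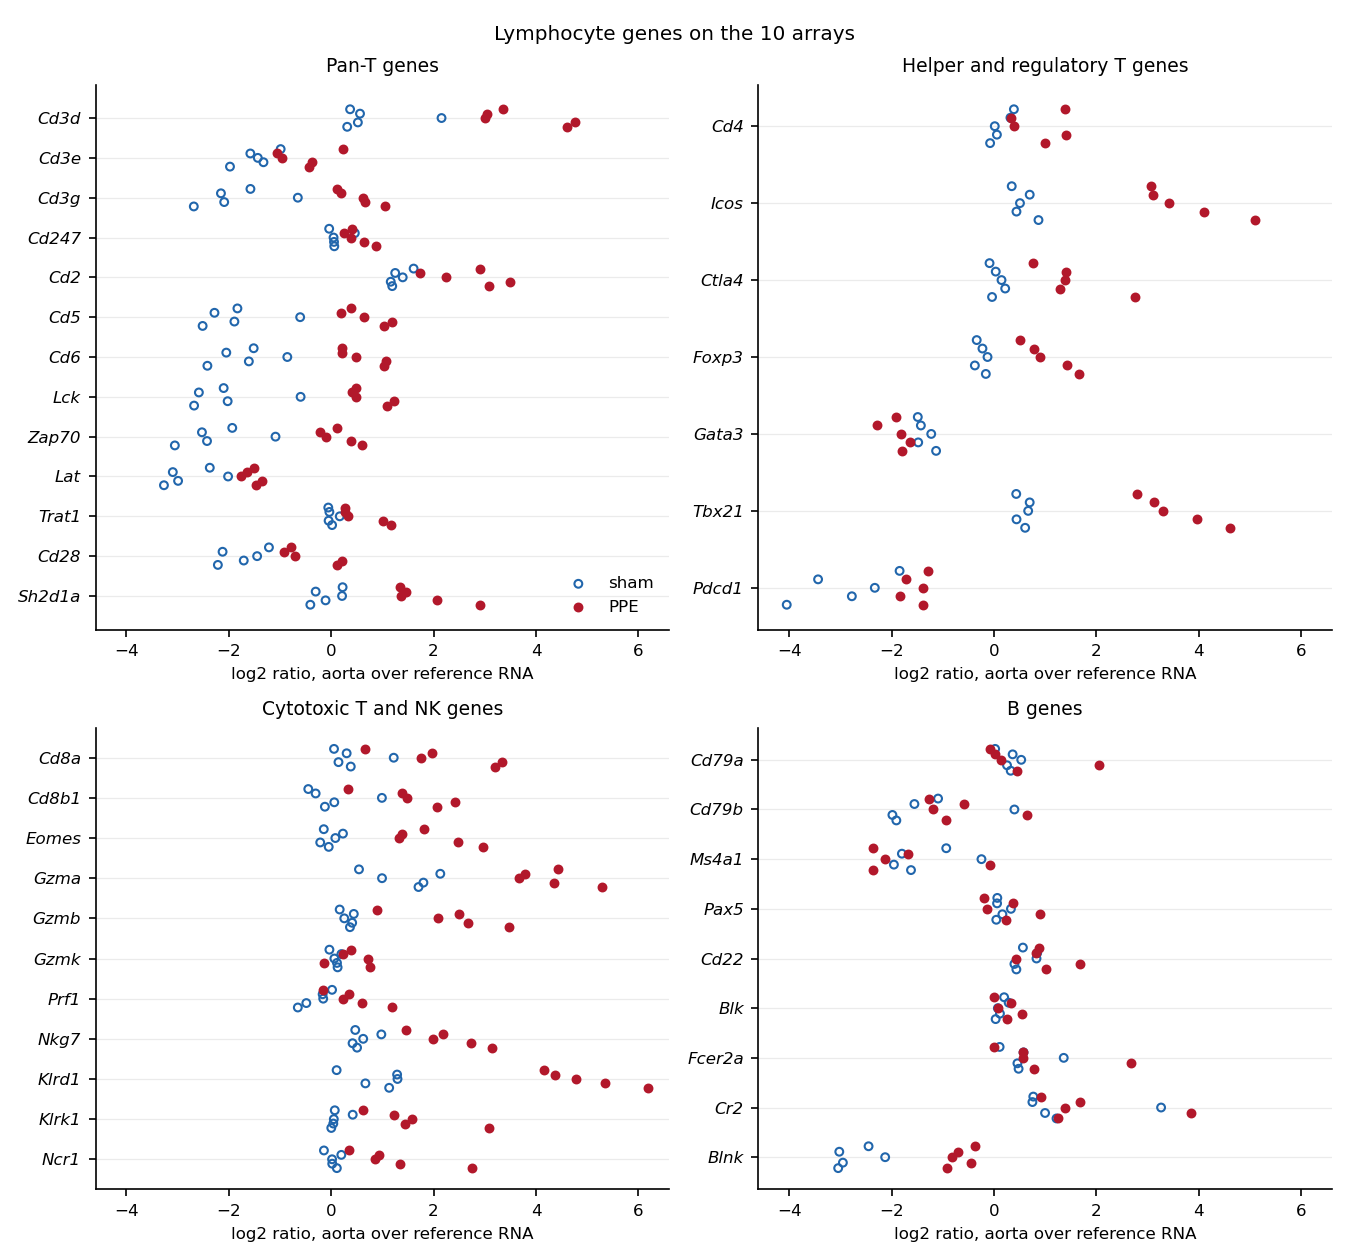
The log2 ratio of aorta over reference RNA (horizontal axis) of each of the 40 genes (rows) on each array, with sham arrays as open blue and PPE arrays as filled red points, in 4 panels by lineage. The groups are apart for most T and NK genes, with Klrd1 at 4.15 to 6.20 on PPE arrays against 0.11 to 1.30 on sham arrays, while 8 of the 9 B genes overlap.

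Of the CD3 chains, which carry the signal of the T cell receptor into the cell, Cd3d differed most. It read 0.31, 0.52, 2.16, 0.56 and 0.37 on sham 1 to 5, and 4.61, 4.76, 3.0, 3.05 and 3.36 on PPE 1 to 5. The PPE arrays were all above the sham arrays, although sham 3 stood well above the other 4. The log2 fold change was 2.97 ± 0.45 (SE; adjusted p = 7.59e-04 by limma), or 7.85-fold. Cd3g, the gamma chain, read -2.68, -2.09, -0.65, -2.15 and -1.58 on the sham arrays and 1.06, 0.67, 0.63, 0.18 and 0.11 on the PPE arrays. It rose by 2.36 ± 0.34 (SE; adjusted p = 5.13e-04 by limma), and here too sham 3 was the nearest of the sham arrays to the PPE range. The epsilon chain Cd3e read -1.98, -1.32, -1.43, -1.58 and -0.99 in sham and -0.44, -0.37, -0.96, -1.06 and 0.22 in PPE. Its groups overlapped, since PPE 4 lay below sham 5, and the difference of 0.94 ± 0.25 (SE) was not called (adjusted p = 0.0206 by limma). These 3 chains are neighbours, their probes lying within 29 kb (chr9:44777868-44806887, mm9). The zeta chain Cd247 is encoded elsewhere and read 0.06, 0.06, 0.05, 0.46 and -0.04 in sham and 0.88, 0.64, 0.39, 0.26 and 0.42 in PPE. The difference was 0.40 (adjusted p = 0.0572 by limma), and only 2 sham arrays had a signal above background. The Cd247 probe printed above gave 0.49, with 0 sham and 2 PPE arrays above background.

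Of the kinases and adaptors next in line, Lck, Zap70, Lat and Sh2d1a were called higher and Trat1 was not. Lck, the first kinase, read -2.68, -2.02, -0.60, -2.58 and -2.10 on the sham arrays and 1.09, 1.23, 0.48, 0.41 and 0.48 on the PPE arrays. All 5 PPE arrays were above all sham arrays, and the log2 fold change was 2.73 ± 0.36 (SE; adjusted p = 3.01e-04 by limma). Zap70, which docks on phosphorylated CD3 chains, rose by 2.36, from between -3.05 and -1.09 in sham to between -0.21 and 0.59 in PPE. Its second probe gave 1.87. Lat, the membrane adaptor downstream of Zap70, rose by 1.2, and Sh2d1a, an adaptor of the SLAM family receptors, by 1.91. Trat1, which stabilises the receptor complex at the surface, read 0.02, -0.05, 0.17, -0.03 and -0.06 in sham and 1.17, 1.02, 0.32, 0.26 and 0.28 in PPE. No sham array and 2 PPE arrays were above background for it, so no least fold can be given. The difference of 0.60 was not called (adjusted p = 0.0403 by limma).

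Cd5, a brake on receptor signalling, read -2.51, -1.89, -0.60, -2.28 and -1.83 in sham and 1.04, 1.19, 0.65, 0.19 and 0.38 in PPE. The groups were apart by 2.51 ± 0.34 (SE; adjusted p = 3.13e-04 by limma), and sham 3 was again the highest sham array. Cd6, a relative of Cd5, rose by 2.29 by its brighter probe and read 0.20 higher by its dimmer one, which spans 1257 bases of mm9, and the probes of this gene disagree. The adhesion receptor Cd2 rose by 1.37 and the costimulatory receptor Cd28 by 1.32. Both calls depended on the setting. With the deposited ratios, Cd2 was 1.01 and not called (adjusted p = 0.0843 by limma on the LogRatio and 0.0697 on the authors' value table). Its call was lost without any 1 of sham 1 to 4, PPE 1 and PPE 5 (adjusted p up to 0.0171 by limma, log2 fold change 1.27 or more), and that of Cd28 without any 1 of sham 1, 2 and 4, PPE 1 and PPE 2 (adjusted p up to 0.0159, 1.17 or more). In 8 of the 13 pan-T genes sham 3 was the highest sham array, and in 7 PPE 2 was the highest PPE array. Without these arrays, 8 of 13 were called and the median was 1.92.

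**Figure D2:**
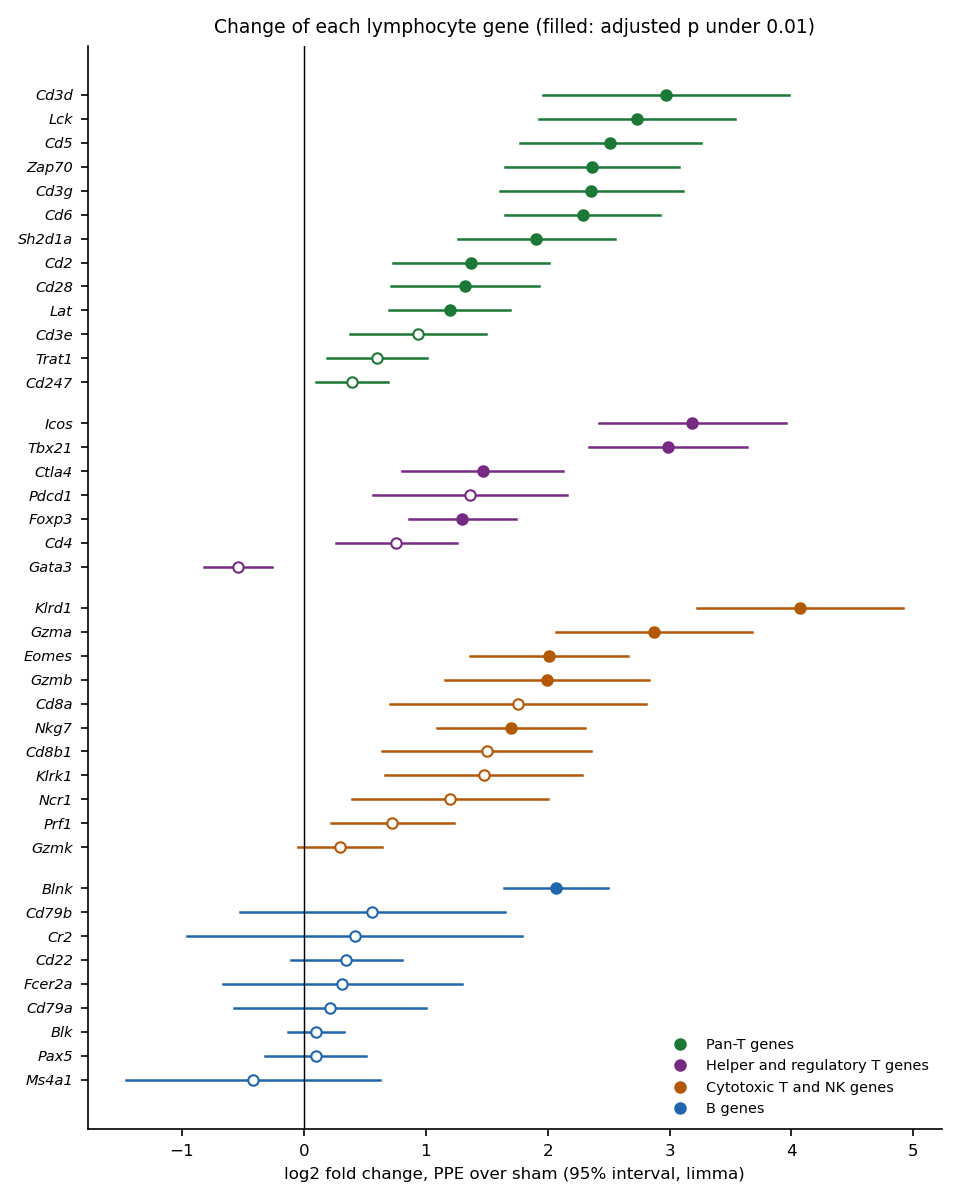
The log2 fold change of PPE over sham (horizontal axis) with its 95% interval from limma for the 40 genes, sorted within each lineage, with filled symbols at adjusted p under 0.01. Klrd1 at 4.07 and Icos at 3.19 lead, all pan-T intervals lie above 0, and the intervals of the B genes except Blnk include 0.

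Of the genes of helper and regulatory T cells, the inducible costimulator Icos and the transcription factor Tbx21, which directs the type 1 program, led. Icos read 0.87, 0.44, 0.51, 0.70 and 0.35 in sham and 5.09, 4.10, 3.43, 3.11 and 3.07 in PPE, so that the lowest PPE array was above 3 and no sham array reached 1. Its log2 fold change was 3.19 ± 0.35 (SE; adjusted p = 8.12e-05 by limma), and 2.03 by its other probe. Tbx21 read 0.61, 0.44, 0.67, 0.70 and 0.43 in sham and 4.60, 3.96, 3.29, 3.13 and 2.79 in PPE. It rose by 2.99 ± 0.29 (SE; adjusted p = 4.12e-05 by limma) and was above background on 3 sham arrays and all 5 PPE arrays.

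Foxp3, the factor that defines regulatory T cells, read -0.16, -0.37, -0.13, -0.23 and -0.34 in sham and 1.66, 1.43, 0.90, 0.79 and 0.50 in PPE. The sham arrays lay close together, and every PPE array was above them (log2 fold change 1.30 ± 0.20 (SE), adjusted p = 7.35e-04 by limma). Ctla4, an inhibitory receptor that binds the same ligands as Cd28, read -0.04, 0.22, 0.15, 0.03 and -0.09 in sham and 2.76, 1.30, 1.39, 1.41 and 0.75 in PPE. No sham array was above background, so the rise was at least 2.21-fold (adjusted p = 0.00457 by limma). The call was lost without any 1 of sham 1, 2, 4 and 5, PPE 3 and PPE 4 (adjusted p up to 0.0135 by limma, log2 fold change 1.43 or more). Cd28, Ctla4 and Icos lie together on chromosome 1 (chr1:60830144-61057164, mm9, by their probes), and all 3 were called higher.

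Cd4, the coreceptor of helper T cells that mouse macrophages can also carry, read -0.08, 0.06, 0.01, 0.32 and 0.39 in sham and 1.0, 1.40, 0.38, 0.34 and 1.38 in PPE. PPE 3 and PPE 4 lay within the sham range, and the difference of 0.76 was not called (adjusted p = 0.0319 by limma). The dimmer Cd4 probe, above background on 2 sham and 4 PPE arrays, gave 0.23. Pdcd1, an inhibitory receptor, had a difference of 1.36 and no overlap of the groups, but wide sham values of -4.05 to -1.84 (adjusted p = 0.0187 by limma). Gata3, the factor of the type 2 program, was the exception in direction, with -1.13, -1.48, -1.23, -1.43 and -1.49 in sham and -1.79, -1.64, -1.82, -2.29 and -1.92 in PPE. All PPE arrays were below all sham arrays, by 0.54 ± 0.13 (SE), which just missed the threshold (adjusted p = 0.0101 by limma). Its signal was above background on every array, and which cells of the tissue carried the transcript was not tested. Gata3 was called lower in 5 of the 21 other settings and its sign turned in 1, median centring in place of loess.

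Among the genes of cytotoxic T and NK cells, the largest difference of all 40 was that of Klrd1, the CD94 chain of the inhibitory and activating NKG2 receptors. It read 1.13, 0.67, 1.30, 1.29 and 0.11 in sham and 6.20, 5.34, 4.78, 4.37 and 4.15 in PPE. The lowest PPE array was well above the highest sham array, and the log2 fold change was 4.07 ± 0.38 (SE; adjusted p = 3.19e-05 by limma), or 16.8-fold. The green reference signal of Klrd1 was above background on 0 arrays, so the size of this fold is less certain. The activating receptor Klrk1 (NKG2D) lies within 13.3 kb of Klrd1 on chromosome 6. It was above background on no sham array and on all 5 PPE arrays, a rise of at least 2.19-fold that was not called (adjusted p = 0.0137 by limma). Ncr1 (NKp46), a receptor largely restricted to NK cells and other innate lymphocytes, read 0.11, 0.02, 0.02, 0.20 and -0.14 in sham and 2.75, 1.34, 0.85, 0.94 and 0.34 in PPE. All PPE arrays were above all sham arrays, but PPE 1 was far above the other 4, and the bound of at least 1.94-fold went with an adjusted p of 0.0368 (limma, not called).

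Granzyme A (Gzma) read 1.71, 1.80, 0.99, 2.13 and 0.54 on the sham arrays and 5.30, 4.35, 3.66, 3.79 and 4.43 on the PPE arrays. It was above background on every array, and rose by 2.87 ± 0.36 (SE; adjusted p = 2.18e-04 by limma). Granzyme B (Gzmb) read 0.37, 0.41, 0.26, 0.44 and 0.17 in sham and 3.47, 2.68, 2.09, 2.49 and 0.89 in PPE. Its sham arrays lay close together while PPE 5 was well below the other PPE arrays, and the log2 fold change was 1.99 ± 0.38 (SE; adjusted p = 0.00285 by limma), with an adjusted p of 0.0180 without sham 3 and PPE 2. With the deposited ratios it was 1.19 and not called (adjusted p = 0.167 by limma on the LogRatio and 0.137 on the authors' value table). Granzyme K (Gzmk) read 0.13, 0.11, 0.06, 0.20 and -0.03 in sham and 0.77, -0.13, 0.71, 0.23 and 0.39 in PPE. The groups overlapped and the difference was 0.30 ± 0.16 (SE; adjusted p = 0.231 by limma), although its probe lies within 87.1 kb of that of Gzma (chr13:113884035-113971087, mm9).

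Perforin (Prf1), the pore-forming partner of the granzymes, read -0.65, -0.48, -0.15, -0.17 and 0.02 in sham and 1.18, 0.61, 0.23, 0.34 and -0.16 in PPE. PPE 5 fell among the sham arrays, and the difference of 0.73 was not called (adjusted p = 0.0425 by limma). The granule protein Nkg7 read 0.51, 0.42, 0.63, 0.98 and 0.47 in sham and 3.14, 2.73, 1.99, 2.19 and 1.46 in PPE. It rose by 1.70 ± 0.27 (SE; adjusted p = 0.00109 by limma), and by 1.83 by its other probe. Eomes, a T-box factor of NK and memory CD8 T cells, read -0.05, -0.21, 0.08, 0.23 and -0.14 in sham and 2.96, 2.47, 1.32, 1.39 and 1.82 in PPE. With no sham array above background, its rise was at least 3.19-fold (adjusted p = 5.31e-04 by limma), and a second probe gave 0.43 on the log2 scale. Cd8a, the alpha chain of the CD8 coreceptor, read 0.38, 0.14, 1.22, 0.30 and 0.06 in sham and 3.2, 3.33, 1.75, 1.96 and 0.66 in PPE. PPE 5 was below sham 3 here, and the difference of 1.76 ± 0.47 (SE) was not called (adjusted p = 0.0208 by limma). The dimmer Cd8a probe, above background on 1 sham and 4 PPE arrays, gave 0.88. Cd8b1, its partner chain within 41.7 kb, had the same order at the ends, with sham 3 the highest sham array, PPE 2 the highest and PPE 5 the lowest PPE array, and a difference of 1.50 (adjusted p = 0.0166 by limma).

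PPE 1 was the highest PPE array for 9 of the 11 cytotoxic T and NK genes, and both exceptions were the CD8 chains, which were highest on PPE 2. It was also the highest for 5 of the 13 pan-T genes, 4 of the 7 helper and regulatory T genes and 0 of the 9 B genes, and these counts were not tested against each other. PPE 1 and PPE 2 had near equal shares of spots with red signal above background (65.8% and 65.3%). For Klrd1, Klrk1 and Ncr1 the reference was above background on 0 arrays, so their ratios correct less for the brightness of an array. The part of array brightness in these orders was not tested. Among the sham arrays, sham 4 was the highest for 7 of the 11, and sham 3 for 3 (Cd8a, Cd8b1 and Klrd1).

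Promoter sequence was looked at for the granule and receptor genes, since several changed together. RefSeq promoters (GRCm38.p6) were available for 29 of the 40 genes, and the 250 bases before the start were searched on both strands for TGTGGT, a core sequence bound by RUNX factors. The motif stood in 10 of the 29, against 15.9% of 27025 genes, and in 6 of 9 cytotoxic T and NK genes (Gzma, Gzmb, Klrk1, Ncr1, Nkg7 and Prf1). For CAGGAAG, an ETS sequence, the count was 10 of 29 against 12.1% of all genes, with 5 of 9 pan-T genes (Cd247, Cd3e, Cd5, Lck and Zap70), and for TCACACC, a T-box sequence, 3 of 29 against 3.84%. Matches to TGTGGT and to GGTGTGA, the reverse complement of TCACACC, can share bases. These motifs were chosen after the values were seen, and a match in letters is not a bound site. The windows of the 3 called genes of the 6 are given 5′ to 3′ on the strand of the gene, with the RUNX match on either strand in capitals. They are Gzma (chr13:113100982-113101231, minus strand), Gzmb (chr14:56262335-56262584, minus strand) and Nkg7 (chr7:43436888-43437137, plus strand), and Gzmb holds 2 matches.
Gzma: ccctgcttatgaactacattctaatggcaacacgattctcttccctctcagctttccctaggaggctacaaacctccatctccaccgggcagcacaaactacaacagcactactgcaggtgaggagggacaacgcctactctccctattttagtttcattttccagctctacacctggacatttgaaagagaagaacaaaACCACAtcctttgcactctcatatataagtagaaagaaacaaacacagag
Gzmb: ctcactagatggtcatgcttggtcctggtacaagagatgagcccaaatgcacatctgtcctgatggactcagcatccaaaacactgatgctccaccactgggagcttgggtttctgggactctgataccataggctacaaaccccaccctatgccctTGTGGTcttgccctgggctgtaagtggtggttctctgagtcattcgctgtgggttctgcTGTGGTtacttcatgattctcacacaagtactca
Nkg7: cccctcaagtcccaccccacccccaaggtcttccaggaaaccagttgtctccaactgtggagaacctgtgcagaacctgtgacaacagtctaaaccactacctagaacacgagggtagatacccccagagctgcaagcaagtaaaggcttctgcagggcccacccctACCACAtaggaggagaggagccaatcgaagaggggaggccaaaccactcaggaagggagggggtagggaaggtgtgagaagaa

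Of the 9 B genes, 8 were not called in either direction. Of the receptor chains, Cd79a read 0.33, 0.25, 0.53, 0.36 and 0.02 in sham and 0.45, 2.05, 0.13, 0.03 and -0.08 in PPE. PPE 2 alone was high, the other 4 PPE arrays lay in the range of the sham arrays or just below it, and the difference was 0.22 ± 0.36 (SE; adjusted p = 0.756 by limma). Cd79b read -1.91, -1.98, 0.40, -1.55 and -1.09 in sham and -0.95, 0.64, -1.19, -0.58 and -1.26 in PPE. The highest arrays were PPE 2 and sham 3, and the difference was 0.56 ± 0.49 (SE; adjusted p = 0.515 by limma). Ms4a1 (CD20), a surface protein of mature B cells, read -1.62, -1.96, -0.25, -1.80 and -0.93 in sham and -2.36, -0.08, -2.14, -1.68 and -2.36 in PPE. The same arrays were highest, and the difference of -0.41 ± 0.47 (SE; 95% interval -1.45 to 0.63) was not called.

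Pax5, the factor that keeps B cell identity, read 0.04, 0.16, 0.33, 0.06 and 0.06 in sham and 0.24, 0.89, -0.15, 0.38 and -0.20 in PPE. Only 1 sham and 2 PPE arrays were above background, and the difference was 0.10. The kinase Blk read 0.03, 0.12, 0.07, 0.29 and 0.20 in sham and 0.25, 0.54, 0.08, 0.33 and 0.01 in PPE. No sham array and 2 PPE arrays were above background for Blk, and the difference of 0.10 was not called. The complement receptor Cr2 (CD21), found on B cells and follicular dendritic cells, read 1.22, 1.0, 3.26, 0.75 and 0.77 in sham and 1.25, 3.85, 1.38, 1.68 and 0.93 in PPE. Sham 3 and PPE 2 were more than 2 above the rest of their own groups, and the difference was 0.42 ± 0.62 (SE; adjusted p = 0.727 by limma). Cd22 and Fcer2a (CD23) had differences of 0.35 and 0.32, neither called.

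The single B gene called was Blnk, the adaptor between Syk and the phospholipase downstream of the B cell receptor, which macrophages express too. It read -3.04, -2.95, -2.13, -3.02 and -2.45 in sham and -0.91, -0.44, -0.82, -0.70 and -0.37 in PPE. All PPE arrays were above all sham arrays, with a log2 fold change of 2.07 ± 0.19 (SE; adjusted p = 2.88e-05 by limma), and 2.17 without sham 3 and PPE 2. Blnk was also the B gene whose highest PPE array was PPE 5 and not PPE 2. Macrophage markers differed between the groups too, with 8 of 12 called higher and 0 lower. Their mean shift was highest on PPE 1 (2.70) and 1.47 on PPE 5, while Blnk was lowest on PPE 1. Blnk spanned only -0.91 to -0.37 over the PPE arrays, and single macrophage markers differed in order among themselves. With so narrow a span, the order of the arrays for Blnk cannot be set against that of these markers. The log2 of the summed ratios of the macrophage markers ran from 5.74 to 6.22 in sham and from 6.80 to 8.18 in PPE. Such a sum, here and below, is ruled by the genes with the highest ratios, as Mrc1 here (mean 4.99 in sham). It does not measure the amount of a cell type. The part of macrophages in the Blnk result was not tested.

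Sham 3 and PPE 2 set the spread of the B genes. Sham 3 was the highest sham array for 7 of the 9 and PPE 2 the highest PPE array for 8, and both held at once for 6. The mean shift of the 9 genes from the sham mean was 0.72 on sham 3 and 1.54 on PPE 2, and between -0.27 and 0.32 on the other 8 arrays. Without these arrays the median log2 fold change of the B genes was 0.07, and Blnk was still the 1 gene called.

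Glycam1, a mucin of the high endothelial venules of lymph nodes, read -0.07, 0.75, 3.50, 0.56 and -0.10 in sham and 3.44, 5.2, 2.05, 2.95 and 1.59 in PPE, again highest on sham 3 and PPE 2. Of the 10 genes of lymph node stroma and these venules, 2 were called higher (Pdpn by 2.46 and Madcam1 by 1.26). The log2 of the summed ratios of the 10 ran from 4.97 to 5.50 in sham and from 5.53 to 7.08 in PPE. Fcamr, of follicular dendritic cells, was above background on no array. On sham 3 the 10 smooth muscle markers were on average -0.68 from the sham mean, the lowest sham array, while on PPE 2 they were at -1.12, the highest PPE array, with the other PPE arrays between -2.33 and -2.05. The part of lymph node tissue in the B and T values of these arrays was not tested. Without both arrays, the medians were 1.92 for pan-T, 1.55 for helper and regulatory T, and 1.60 for cytotoxic T and NK genes. Leaving them out does not remove the Glycam1 signal, which on the remaining arrays was -0.10 to 0.75 in sham and 1.59 to 3.44 in PPE. These medians therefore do not set lymph node tissue aside.

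**Figure D3:**
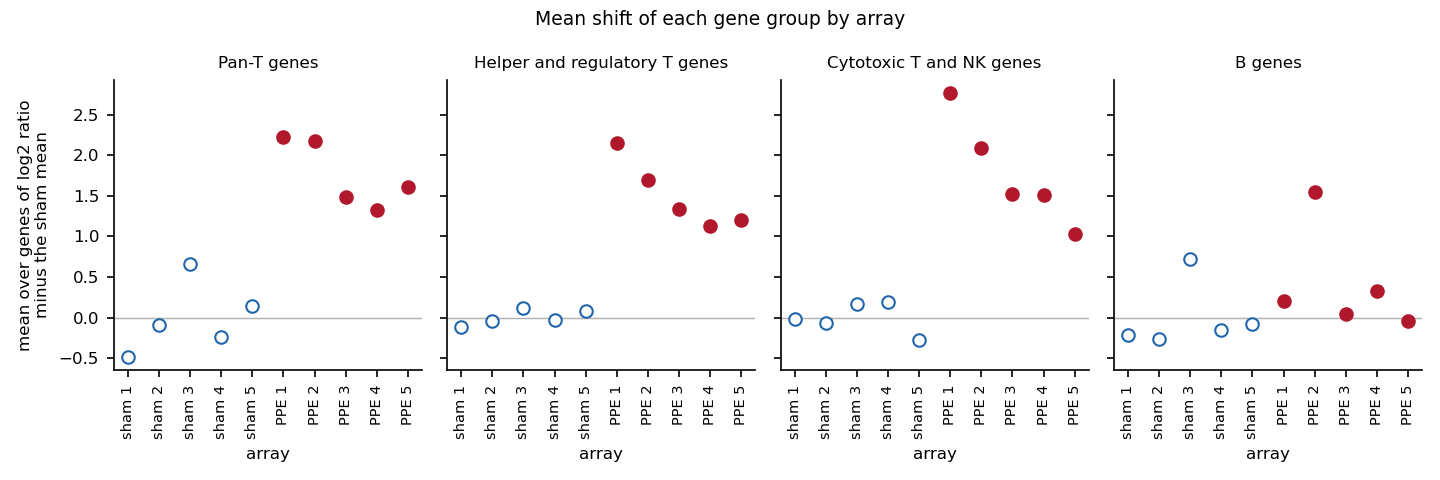
The mean over the genes of a lineage of the log2 ratio minus that gene's sham mean (vertical axis), for each of the 10 arrays, with sham arrays open and PPE arrays filled. The PPE arrays are at 1.02 or more in the first 3 panels, while in the B panel sham 3 at 0.72 and PPE 2 at 1.54 stand above the other 8 arrays.

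Slides 1 and 2 held both groups, so the difference could be taken within each. On slide 1, 39 of the 40 genes were higher in PPE, with a median of 2.18, and on slide 2, 33 of 40 with a median of 0.95. By lineage the medians on slides 1 and 2 were 2.90 and 1.36 for pan-T genes, 2.07 and 1.09 for helper and regulatory T genes, 2.43 and 1.36 for cytotoxic T and NK genes, and 0.92 and -0.13 for B genes. All 13 pan-T and all 11 cytotoxic T and NK genes were higher in PPE on both slides. The B genes were higher on slide 1 in 9 of 9 and on slide 2 in 3 of 9. PPE 2 is on slide 1 and sham 3 on slide 2. With the slide as a fixed block, 14 of the 40 were called higher, 5 of them pan-T genes, and Cd3d, Cd2, Zap70, Lat, Cd28 and Ctla4 were no longer called, with log2 fold changes of 2.76, 1.26, 2.38, 1.22, 1.41 and 1.56. Over the whole array, 3070 names were called higher and 2234 lower with this block, against 3017 and 2109 without it.

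**Figure D4:**
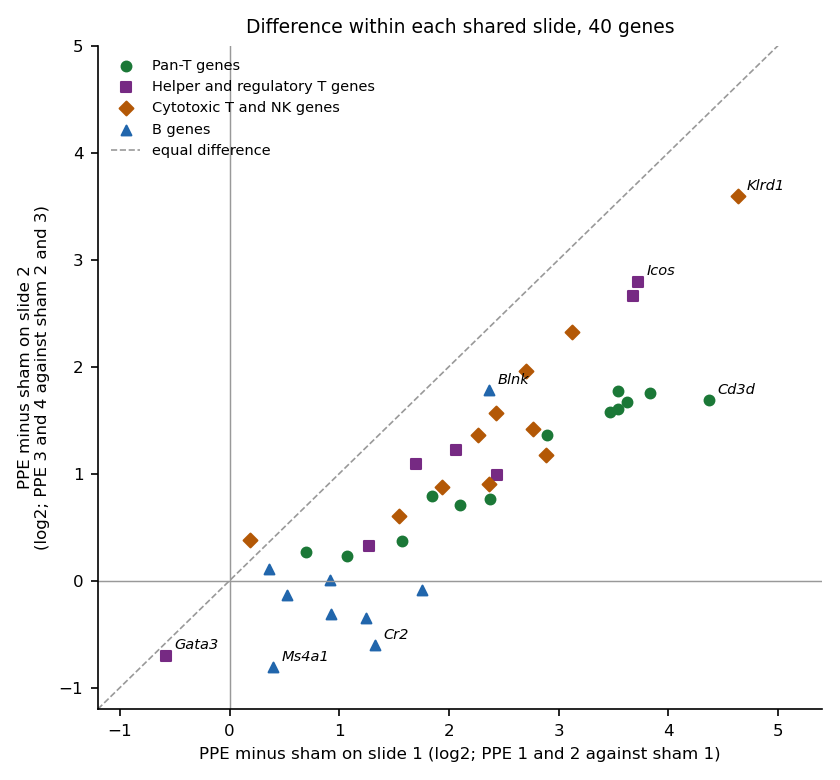
PPE minus sham on slide 1 (horizontal axis, log2) against PPE minus sham on slide 2 (vertical axis, log2) for the 40 genes, with symbols by lineage and a dashed line where both differences are equal. T and NK genes lie in the upper right, apart from Gata3, which is negative on both slides, while most B genes are positive on slide 1 and at or below 0 on slide 2.

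Other genes of the same pathways were read from lists by function. Of 24 further genes of T cell receptor signalling, 15 were called higher and 0 lower, with a median log2 fold change of 1.82. The adaptor Fyb rose by 3.50, the exchange factor Vav1 by 3.49 and the phosphatase Ptprc (CD45) by 3.06, and these 3 are used by myeloid cells as well. Of 12 other NK receptors, 9 were called higher and 0 lower, with a median of 2.34. Klra8 rose by 3.71, Klra7 by 3.37 and Klrc1, the NKG2A partner of Klrd1, by 3.25. The Klra genes are near copies of each other, so their probes may share signal. Of 20 genes of B cell receptor signalling and plasma cells, 10 were called higher and 1 lower, with a median of 1.07. Those that led were Cd72 (3.55), Cd83 (2.38) and the kinase Btk (2.26), and Cd83 and Btk are also expressed by myeloid cells. Ebf1, a B cell factor also expressed in stromal and fat cells, fell by 1.10.

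Of 15 effector cytokines and death ligands, 5 were called higher, with a median of 0.39. Ifng, the type 1 cytokine of T and NK cells, read 0.30, 0.13, 0.02, 0.16 and 0.08 in sham and 4.56, 3.16, 2.50, 2.57 and 2.02 in PPE. It rose by 2.82 ± 0.39 (SE; adjusted p = 3.82e-04 by limma), with PPE 1 the highest array as for the NK genes. Ltb rose by 2.81 and Tnfsf11 by 2.41. Il2, Il4 and Il17a had differences of 0.43, 0.33 and 0.05, none called, and no sham array was above background for any of them. Of 11 chemokines that draw lymphocytes, 6 were called higher and 0 lower, with a median of 2.43. Cxcl10 rose by 5.52, Ccl5 by 4.07 and Cxcl12 by 3.35. Among 12 of the receptors for chemokines and homing, 6 were called higher, among them Cxcr3 (3.08), which binds Cxcl10, and Ccr7 (3.05).

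Markers of other cells differed between the groups to unlike degrees, where 8.49% of all names were called higher and 5.94% lower. Apart from the macrophage markers, 9 of 11 neutrophil markers were called higher (median 3.11, log2 of the summed ratios 4.33 to 4.53 in sham and 7.25 to 8.30 in PPE). So were 4 of 10 dendritic cell markers (3.82 to 4.05 and 4.64 to 6.04). Of 9 mast cell markers only Hdc was called, and their median was -0.04 (5.4 to 6.10 and 5.41 to 6.44). Ms4a2 was above background on no array. Smooth muscle markers were called lower in 8 of 10 (7.53 to 8.76 and 5.56 to 7.00), endothelial markers in 0 of 10 in either direction (6.29 to 7.47 and 6.64 to 7.90), and adipocyte markers were called lower in 2 of 10 (8.88 to 10.03 and 7.88 to 9.6). Their part in the lymphocyte values was not tested.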

How the data were processed

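Aortic RNA (Cy5, 500 ng, un-pooled) of 5 sham and 5 PPE mice was hybridized against universal mouse reference RNA (Cy3) on 2-colour 8x60K arrays, with no dye swap. Per the methods, the authors left poor arrays and outliers out of their analysis, and which ones is not stated. The deposited scanner values, from Feature Extraction 10.7.3.1, are spot intensity on a linear scale, with a log10 ratio of red over green. The authors' value table holds log2 ratios, which equalled log2 of processed red over green on 100% of spots (tolerance 1e-04). Its column medians ran from -0.16 to 0.12. These served as alternatives only.

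In R 4.3.3 with limma 3.58.1, mean signals were corrected by normexp (offset 50), which draws ratios of dim probes towards 0, and normalized by loess within arrays. Control spots and 176 to 331 outlier spots per array were left out, and spots of a probe were averaged, giving 55681 probes. A gene is a gene name of the files, represented by its probe with the highest mean brightness. No filter on dim probes was applied, so all 35527 names were tested. Of the 40 genes, 37 had red signal above background on at least 5 arrays, 18 on all 10, and 6 on no sham array. Green reference signal was above background on all 10 arrays for 21 of the 40, and on 0 arrays for 6. It was above background on 1 array for Icos and Cd8a, 2 for Eomes and 3 for Tbx21. The number of arrays limits the precision. Groups came from the labels. The test was limma's moderated test (lmFit and eBayes; unpaired, two-sided) at adjusted p under 0.01, after the 2-class unpaired comparison and 1% false discovery rate of the methods. The study's own test, SAM, was not run. Each array is 1 mouse. A bound ("at least") compares red channel values after loess and Aquantile with the higher of the dim probe's own signal and the lowest signal above background, per array. The fit was tested on simulated data.

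The genes and all lists were chosen with earlier results of these data known. Named with values on every array are leading lineage genes and the 3 largest and 3 smallest log2 fold changes per lineage, and up to 3 called genes per related list by size of change; Glycam1, Ebf1, Il2, Il4 and Il17a were named after their values were seen. Of the related lists, 1 gene within this rule is not reported here. Klrc2, Klra3 and Ly6g were not matched by name, and Syk and Ighm were matched by older names. Probe positions are those of the files (mm9). Promoters are from RefSeq, GRCm38.p6. Alternatives were the background correction, offset, normalization, dim-probe filter, mean of probes, slide and replicate blocks, threshold and left-out arrays.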

Additional observations from a re-analysis of the deposited data

Results flagged for a closer look

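In 7 of 80 groups of 5 values (40 genes in sham and in PPE), 1 array stood apart from the other 4, by a gap to its neighbour that was a share of the whole range above 0.71. Chance gives this in about 5% of groups. In sham, Cd3d read 2.16 on sham 3, with the next value at 0.56. Cd8a read 1.22 on the same array, with the next at 0.38, and Cr2 read 3.26, with the next at 1.22. Sham 4 stood apart for Cd247 at 0.46, next to 0.06, and for Klrk1 at 0.42, next to 0.07. In PPE, PPE 2 stood apart for Cd79a at 2.05, next to 0.45, and for Cr2 at 3.85, next to 1.68. For Klrk1, no sham array was well above background.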

How the results depend on the processing

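Of the 20 genes called higher, all kept their direction under the 21 other settings, and 13 of them kept the call in all but median centring. Centring each array on its median in place of loess left 0 of 40 genes called higher, 0 in each of the 4 lineages, with 233 names higher and 0 lower over the array; 30 of the 40 had an unadjusted p under 0.05 there, and the cause was not tested. Members called higher were 21 with the LogRatio, 21 with the authors' log2 ratios, 20 with Aquantile, which leaves ratios as they are, 26 with an offset of 16, 22 with the dim-probe filter, 20 with the mean of probes, 24 with the slide as a random block, and 29 at adjusted p under 0.05 (4599 names higher and 3294 lower over the array). Leaving out 1 array gave 17 to 22, with 8 to 10 pan-T, 3 to 4 helper and regulatory T, 5 to 8 cytotoxic T and NK and 1 B gene, 0 to 1 called lower, and 2383 to 3607 names higher and 1637 to 2223 lower over the array. The slide as a fixed block left 5 pan-T genes, with 3070 names higher over the array. Names called higher were 3112 with the LogRatio, 2803 with the authors' log2 ratios and 3157 with an offset of 16. They were 3017 with Aquantile, 3122 with the dim-probe filter, 2925 with the mean of probes and 3783 with the random slide block. Cytotoxic T and NK genes called higher rose from 5 to 9 with an offset of 16, 8 with the random slide block (correlation 0.36) and 10 at adjusted p under 0.05. Members called lower were 1 (Gata3) with the LogRatio, the filter, the mean of probes, the random slide block, without PPE 2, and at adjusted p under 0.05. Signs turned for Gata3 (0.0798) and Ms4a1 (0.20) under median centring, for Cd79a (-0.17 to 0.37 over the left-out arrays), Pax5 (-0.0657 to 0.21), Fcer2a (-0.12 to 0.54) and Cr2 (-0.0914 to 0.88) without PPE 2, and for Cd79a (-0.11) and Pax5 (-0.0162) without sham 3 and PPE 2; no value with a turned sign was called. With the replicate number as a block, 21 were called, but the numbers do not pair the mice: deviations of same-numbered arrays correlated at 0.33, -0.29, 0.19, -0.14 and 0.50, and 1 of 5 sham arrays correlated best with its own number. Probes near background limit Trat1, Blk, Pax5, Ctla4, Klrk1, Ncr1 and Eomes. For Ctla4, Klrk1, Ncr1 and Eomes the fold is given as a bound.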
